A study of Mus musculus with 4 samples.

Results

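Of 10 genes for type 1, type 2, alarmin and other inflammatory cytokines, *Il11* was higher and *Il33* was lower in the stomachs of *c-Myc* transgenic mice than in WT stomachs. *Il18* and *Il1b* were expressed in all libraries and did not pass the test. *Il4*, *Il6* and *Il13* had at most 10 reads in any library, and *Il17a*, *Ifng* and *Tnf* had none. The 10 genes (*Il1b*, *Il4*, *Il6*, *Il11*, *Il13*, *Il17a*, *Il18*, *Il33*, *Tnf* and *Ifng*) were chosen because they are cytokines linked to gastric metaplasia and tumors, and they are 10 of the 46095 gene symbols in the count table.

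RNA was sequenced from 2 WT and 2 Atp4b-cre;MycOE stomach samples of C57BL/6 mice, 12 weeks of age. The transgenic mice carry 1 floxed allele with a human *c-Myc* transgene, which Cre recombinase switches on from the *Atp4b* promoter, active in the acid-secreting parietal cell lineage. The WT animals are littermates that carry both floxed alleles and no Cre, so the groups differ in Cre and in the number of floxed alleles as well as in *c-Myc*. Libraries held 30260305 to 41463647 counts. The labels and methods do not say that each library came from 1 mouse, so the spread between libraries may be technical in part.

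Cytokines are secreted proteins through which immune, stromal and epithelial cells signal to each other. Type 1 cytokines such as interferon gamma (*Ifng*) activate macrophages against intracellular microbes, and type 2 cytokines, *Il4* and *Il13*, drive mast cell, eosinophil and mucus responses. Alarmins such as interleukin 33 are stored in barrier and stromal cells and released on damage, and in the stomach interleukin 33 and interleukin 13 are known for their part in metaplasia after parietal cell loss. Interleukin 11 belongs to the interleukin 6 family and signals through gp130 (*Il6st*) to STAT3, a route known to drive gastric tumors in mice.

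In the deposited table the gene names and the transgenic counts are out of register, so each transgenic column was laid, row by row, onto the names sorted by character code before anything was read. Over the 61 rows around each cytokine, Pearson's r across genes, which are not independent replicates, was 0.107 to 0.51 between the genotypes as deposited (*Tnf* aside, whose window gave none) and 0.966 to 0.994 after re-sorting. The numbers printed beside *Il13* and *Ifng* in the transgenic columns of the file, 4122 and 4305 for *Il13* and 3636 and 5123 for *Ifng*, are those of the receptors *Il13ra1* and *Ifngr1* in the sorted order. All values below are from the re-sorted table. WT replicate 2 was the only library with high *Xist* (17846 counts, against 85 to 201 in the others), and it had 5 counts of the Y-linked *Ddx3y*, against 1861 to 2623. Mouse *Myc* did not pass the test (1062 and 759 counts in WT, 735 and 1091 in transgenic mice, adjusted p = 0.163 from edgeR), and the human transgene has no row of its own.

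*Il11* and *Il33*, the genes that passed the test, are shown by the stretches before their starts, 250 bases before to 50 after, on the gene's strand, from RefSeq on GRCm38.p6. This is the assembly of mm10, the build in the submitters' processing notes. Capitals mark matches on either strand to CACGTG (the E-box that MYC and MAX bind), TGANTCA (the AP-1 motif), TTCNNNGAA (the STAT motif), CCAAT and TATAAA.
*Il11*, chr7:4782808-4783107, minus strand: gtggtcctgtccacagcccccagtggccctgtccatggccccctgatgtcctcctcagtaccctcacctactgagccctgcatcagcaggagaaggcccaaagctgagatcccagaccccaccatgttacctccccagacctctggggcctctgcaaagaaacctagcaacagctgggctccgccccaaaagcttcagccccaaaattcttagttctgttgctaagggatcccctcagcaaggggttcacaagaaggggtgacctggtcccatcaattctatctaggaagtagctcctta
*Il11*, second start, chr7:4778092-4778391, minus strand: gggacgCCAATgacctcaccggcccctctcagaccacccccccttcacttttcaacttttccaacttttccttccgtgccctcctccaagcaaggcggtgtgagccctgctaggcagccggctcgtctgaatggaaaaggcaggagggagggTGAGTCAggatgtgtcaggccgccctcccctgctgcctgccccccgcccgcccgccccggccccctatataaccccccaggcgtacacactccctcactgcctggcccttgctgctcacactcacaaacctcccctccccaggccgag
*Il33*, chr19:29924863-29925162, plus strand: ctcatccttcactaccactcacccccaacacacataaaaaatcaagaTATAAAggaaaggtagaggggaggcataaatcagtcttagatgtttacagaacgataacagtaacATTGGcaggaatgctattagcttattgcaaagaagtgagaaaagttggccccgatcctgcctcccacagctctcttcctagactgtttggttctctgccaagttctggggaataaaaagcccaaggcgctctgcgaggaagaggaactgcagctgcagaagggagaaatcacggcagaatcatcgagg
*Il33*, second start, chr19:29945540-29945839, plus strand: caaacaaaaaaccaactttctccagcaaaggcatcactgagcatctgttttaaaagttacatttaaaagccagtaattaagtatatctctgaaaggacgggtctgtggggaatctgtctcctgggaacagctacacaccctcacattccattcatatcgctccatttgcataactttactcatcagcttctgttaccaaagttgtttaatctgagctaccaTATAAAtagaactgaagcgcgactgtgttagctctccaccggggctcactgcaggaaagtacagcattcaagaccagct

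No E-box was found in any of the 13 windows of the 10 cytokines, and 7.15% of all 32851 windows held one. The AP-1 motif stood in the second *Il11* window and in those of *Il6* and *Il17a*, and 7.81% of all windows held it. The STAT motif, in 8.30% of all windows, was in none of the *Il11* and *Il33* windows. TATAAA, in 13.6% of all windows, was in both *Il33* windows and in neither *Il11* window, and CCAAT (37.4%) was in the second *Il11* and the first *Il33* window. These matches are letters only, and binding was not measured.

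Interleukin 11, a fibroblast and epithelial cytokine, had the largest difference of the tested cytokines. *Il11* (chr7:4772373-4782859, minus strand) had 12 and 6 counts in the WT libraries and 134 and 113 in the transgenic ones. These are 0.358 and 0.215 against 3.95 and 2.53 normalized CPM, a count divided by the TMM-scaled library size. Both transgenic libraries lay above both WT libraries. The mean rose from 0.286 ± 0.101 normalized CPM in WT to 3.24 ± 1.0 in transgenic mice (SD, n = 2 each). The log2 fold change was 3.47 (standard error 0.49, 95% interval 2.14 to 4.8), 11.1-fold, with an adjusted p-value of 0.0295 from edgeR's quasi-likelihood test over 17643 genes. *Il11* passed the filter on low counts through the transgenic libraries, since only 1 WT library reached the filter's level. It was left untested when at least 10 counts were required in every library.

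Interleukin 33, the alarmin kept in the nucleus of stromal, endothelial and epithelial cells, had the highest normalized CPM of the 10. That scale leaves out gene length, and per kilobase of exon *Il18* lay above *Il33* in every library. *Il33* (chr19:29925114-29960718, plus strand) had 4009 and 3590 counts in the WT libraries and 2602 and 3362 in the transgenic ones. Scaled to normalized CPM these were 119 and 129 in WT and 76.7 and 75.3 in transgenic mice, and the groups did not overlap. The mean fell from 124 ± 6.52 in WT to 76.0 ± 1.03 in transgenic mice (SD, n = 2 each), a log2 fold change of -0.71 (standard error 0.08, 95% interval -0.93 to -0.49), or 1.63-fold lower, with an adjusted p of 0.0228 from edgeR. The call rests on TMM scaling in part. With library size alone the log2 fold change was -0.48, a change of less than 1.5-fold, with an adjusted p of 0.0253.

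Thus 2 of the 4 tested cytokines were called, 1 in each direction. Over all tested genes 10.7% were called, 5.65% higher and 5.08% lower. In the same fit 34.1% of all genes had an unadjusted p under 0.05, and DESeq2 called 18% at the same thresholds, so counts of either kind below are read against those shares. Calls needed both an adjusted p below 0.05 and a change of more than 1.5-fold. In fits that left only 1 WT library, edgeR called 0 genes in all and neither cytokine, with 3410 and 3554 genes, both cytokines among them, at an unadjusted p under 0.05. The log2 fold change over the 4 fits without 1 library was 3.12 to 3.89 for *Il11* and -0.76 to -0.66 for *Il33*. Without WT replicate 2, the library with *Xist*, the values were 3.16 (adjusted p = 0.238) and -0.66 (adjusted p = 0.232). Without WT replicate 1 they were 3.89 (adjusted p = 0.201) and -0.76 (adjusted p = 0.196). Without transgenic replicate 1 *Il11* also fell short, at 3.12 (adjusted p = 0.0545).

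**Figure D1:**
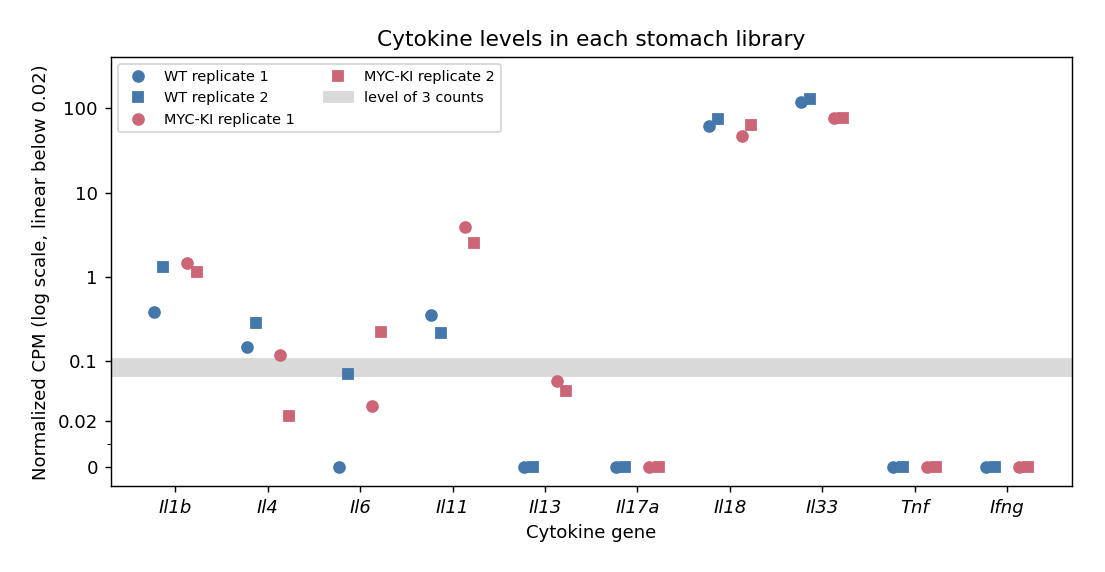
Normalized CPM (log scale, linear below 0.02) of the 10 cytokines in each library, blue for WT and red for transgenic (MYC-KI) mice, circles for replicate 1 and squares for replicate 2; the grey band is the level of 3 counts. *Il11* is separated between the groups at 0.215 to 0.358 against 2.53 to 3.95, *Il33* at 119 to 129 against 75.3 to 76.7, and *Il17a*, *Tnf* and *Ifng* lie at 0.

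Interleukin 18, an interferon-gamma-inducing cytokine that epithelial cells hold as a precursor for caspase-1, did not pass. *Il18* had 61.9 and 74.6 normalized CPM in WT and 46.3 and 63.0 in transgenic mice (2079 and 2081 against 1569 and 2816 counts). WT replicate 1 lay below transgenic replicate 2, so the groups overlapped. The log2 fold change was -0.32 (95% interval -0.83 to 0.19, adjusted p = 0.308 from edgeR). It was -0.098 with library size scaling and -0.56 to -0.11 when 1 library was left out. An interval of this width holds differences on either side of 0, so equal levels were not shown. Its gene (chr9:50554827-50581840) overlaps *Bco2* on the other strand, which had 348 to 489 counts in WT and 799 to 945 in transgenic mice, and whether the counting used strand is not given in the sources used here.

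Interleukin 1 beta, the macrophage cytokine of the inflammasome, did not pass. *Il1b* (chr2:129364570-129371139, minus strand, overlapped by the antisense gene *Il1bos* with 2 to 10 counts) had 13 and 37 counts in the WT libraries and 50 and 51 in the transgenic ones, or 0.387 and 1.33 against 1.47 and 1.14 normalized CPM. The WT libraries differed by more than the group means, 0.857 ± 0.664 and 1.31 ± 0.235 (SD, n = 2 each). The log2 fold change of 0.62 had a 95% interval of -1.22 to 2.46 (adjusted p = 0.576 from edgeR), and it was -0.022 without WT replicate 1 and 1.74 without WT replicate 2.

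**Figure D2:**
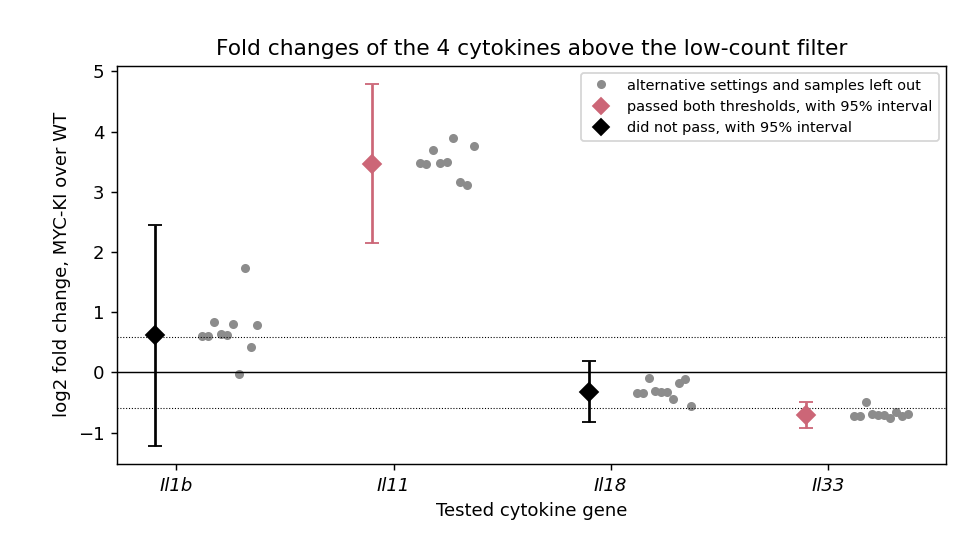
Log2 fold change of transgenic (MYC-KI) over WT for the 4 tested cytokines, with 95% intervals (diamonds; red passed both thresholds) and the values under other settings or without 1 library (grey points). Dotted lines mark 1.5-fold in each direction; *Il11* stays between 3.12 and 3.89, *Il33* between -0.76 and -0.48, and *Il1b* spans 0.

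The type 2 cytokines were at the edge of detection. *Il4* (chr11:53602982-53618669), the cytokine that directs type 2 helper cells, had 5 and 8 counts in the WT libraries and 4 and 1 in the transgenic ones, with no overlap. *Il13* (chr11:53631324-53634702), its neighbor and the effector of mucosal type 2 responses, had 0 counts in both WT libraries and 2 in each transgenic one. With 3 counts per library taken as the limit that a 0 allows (0.0894 and 0.108 normalized CPM in the WT libraries, one-sided and for counting error only), *Il13* was not distinguishable between the genotypes at this depth and no fold is given. Both were removed by the filter on low counts. Fitted without a filter, *Il4* had an adjusted p of 0.551 and *Il13* one of 0.480 from edgeR.

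*Il6* (chr5:30013114-30019981, plus strand), the acute-phase cytokine that shares gp130 with interleukin 11, had 0 and 2 counts in the WT libraries and 1 and 10 in the transgenic ones. The 10 counts were in transgenic replicate 2 alone, and the groups overlapped. Without a filter its log2 fold change was 1.86 with a 95% interval of -2.32 to 6.03 (adjusted p = 0.622 from edgeR).

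*Ifng* (chr10:118441046-118445892), made by T and natural killer cells, and *Il17a* (chr1:20730905-20734496), made by T helper 17 and innate lymphoid cells, had 0 counts in all 4 libraries. Other genes near them had reads. Of the 10 coding genes on each side, 18 of 20 had counts around *Ifng* and 14 of 20 around *Il17a*, and the 0 runs there hold 3 genes over 241 kb (*Il22* to *Ifng*) and 2 genes over 54 kb (*Il17a* and *Il17f*), all of them cytokine genes. The next genes with counts were *Mdm1* (600 in all) and *Dyrk2* (19663) around *Ifng*, and *Pkhd1* (1259) and *Mcm3* (7678) around *Il17a*. Neither cytokine was thus detectable at this depth, and the same 3 counts correspond to 0.0672 to 0.108 normalized CPM over the 4 libraries.

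*Tnf* (chr17:35199381-35202007, minus strand), the macrophage cytokine that signals through tumor necrosis factor receptors to NF-kB, stands in a run of 25 consecutive coding genes, from *Vwa7* to *Atp6v1g2* over 222 kb, that have 0 counts in every library. The run holds the genes *Csnk2b*, *Bag6*, *Prrc2a* and *Clic1*, which most cells express, and also *Lta* and *Ltb*. Of the 10 coding genes on each side of *Tnf*, 7 of 20 had any count and 1 had at least 100 in all. Only the listing at 0 is therefore given for *Tnf*, *Lta* and *Ltb*, with no level and no upper limit.

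**Figure D3:**
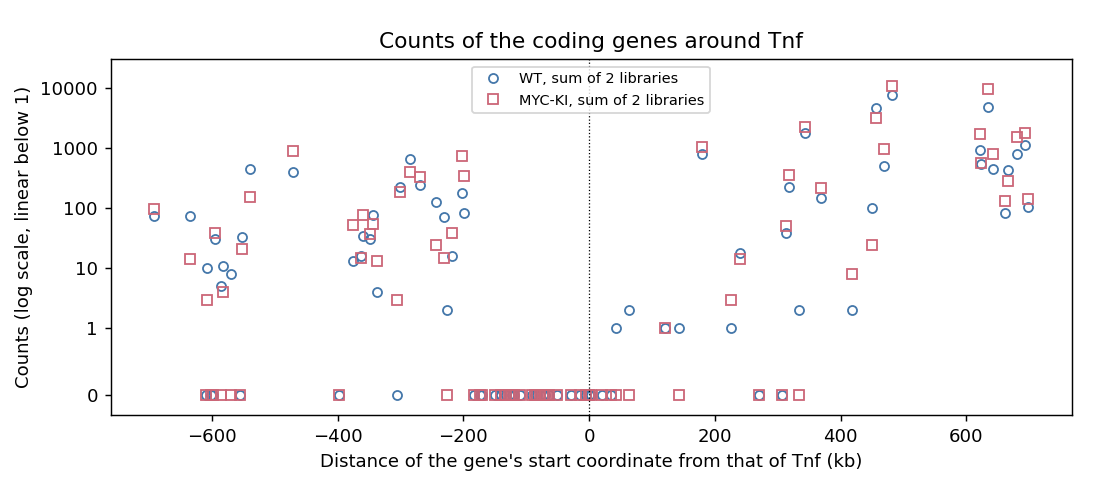
Counts (log scale, linear below 1; sum of the 2 libraries of each genotype) of coding genes around *Tnf* against the distance of their start coordinates from that of *Tnf* in kb. The 25 genes of the run around *Tnf*, spanning 222 kb, lie at 0 in both genotypes.

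Levels of different genes can be compared only per length, here per kilobase of merged GENCODE exons. *Il18* had 44.9 to 72.4 normalized CPM per kb over the 4 libraries and *Il33* 26.1 to 44.6, and within every library *Il18* was above *Il33*. In WT, *Il4* (0.121 and 0.234) overlapped in level per kb with both *Il1b* (0.203 and 0.695) and *Il11* (0.172 and 0.103), and *Il1b* lay above *Il11*. In transgenic mice *Il11* (1.90 and 1.22) lay above *Il1b* (0.773 and 0.599), which lay above *Il4* (0.0961 and 0.0182), *Il6* (0.0121 and 0.0922) and *Il13* (0.0489 and 0.0372). The last group overlapped.

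Receptors of the cytokines were then read in the same fit. Of 19 receptor genes 18 were tested, and edgeR called 0 higher and 2 lower, with 3 higher and 4 lower at an unadjusted p under 0.05. DESeq2 called 1 higher and 2 lower. The median log2 fold change was -0.06 over the list and 0.01 over all genes. Both genes that edgeR called form the interleukin 11 receptor. Reads of *Il11ra1*, the ligand-binding chain, numbered 2739 and 2045 in the WT libraries and 989 and 1258 in the transgenic ones. In normalized CPM these were 81.6 and 73.3 against 29.2 and 28.2, with no overlap. The log2 fold change was -1.43 (standard error 0.09, 2.70-fold lower, adjusted p = 0.0140 from edgeR). *Il6st*, the gp130 chain shared by the interleukin 6 family, had 243 and 253 normalized CPM in WT and 147 and 174 in transgenic mice. It was 1.55-fold lower (log2 fold change -0.63, standard error 0.11, adjusted p = 0.0407 from edgeR). *Il6st* did not pass with library size scaling (-0.41) or without transgenic replicate 1 (-0.51, adjusted p = 0.0569). Like every pathway gene called here, both lost their calls when either WT library was left out. *Il6ra*, the interleukin 6 chain, overlapped between the groups (437 and 407 counts against 288 and 740).

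The receptor of interleukin 33 had a high fitted value that did not pass. *Il1rl1*, also called ST2 and carried by mast cells and type 2 innate lymphoid cells, had 451 and 469 counts in the WT libraries and 832 and 1581 in the transgenic ones. Its levels of 13.4 and 16.8 against 24.5 and 35.4 normalized CPM did not overlap, and the log2 fold change of 0.99 (95% interval 0.35 to 1.63) had an adjusted p of 0.0677 from edgeR. Its partner chain *Il1rap*, shared with interleukin 1, had 10.4 and 10.4 normalized CPM in WT and 7.64 and 8.95 in transgenic mice (adjusted p = 0.281). For the other tested cytokines, *Il1r1* (adjusted p = 0.537), the decoy *Il1r2* (0.790), *Il18r1* (0.520) and *Il18rap* (0.408) did not pass.

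*Il4ra*, the chain common to interleukin 4 and 13, had 43.5 and 50.3 normalized CPM in WT and 83.3 and 59.0 in transgenic mice (log2 fold change 0.60, adjusted p = 0.116 from edgeR). *Ifngr1*, the interferon gamma binding chain, had a log2 fold change of -0.47 with an adjusted p of 0.0473, under the fold threshold.

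**Figure D4:**
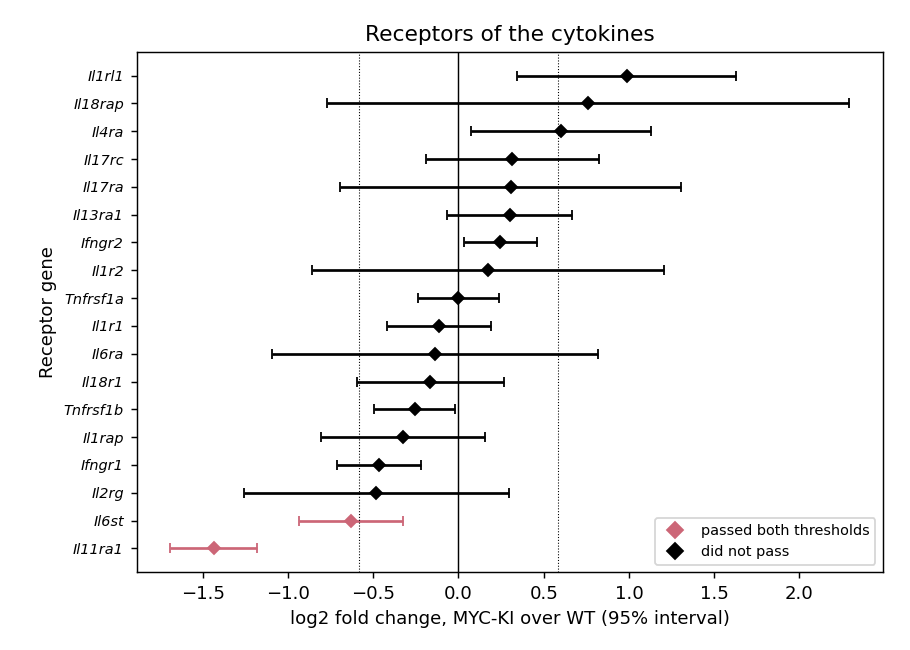
Log2 fold change of transgenic (MYC-KI) over WT with 95% intervals for the 18 tested receptor genes, sorted by value; red marks genes that passed both thresholds and dotted lines mark 1.5-fold in each direction. *Il11ra1* at -1.43 and *Il6st* at -0.63 passed, and *Il1rl1* at 0.99 did not.

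Cytokines of the same families were read next. Of 30 related cytokine and decoy genes 8 were tested and 0 were called, with 0 at an unadjusted p under 0.05 in edgeR and 0 called by DESeq2. Of the rest, 9 genes were listed at 0 in every library. *Lta* and *Ltb* are among these 9 and are given no level, since they lie in the run around *Tnf*. *Il25*, the tuft cell alarmin, had 1 and 0 counts in the WT libraries and 5 and 13 in the transgenic ones, and *Tslp*, the epithelial alarmin, had 1 and 0 against 8 and 1. Neither was tested after the filter. The 4 interleukin 36 genes (listed as *Il1f5*, *Il1f6*, *Il1f8* and *Il1f9*), squamous epithelial members of the interleukin 1 family, summed to 54.7 and 29.5 normalized CPM in WT and 13.1 and 53.0 in transgenic mice. Markers of forestomach squamous epithelium differed between replicates too, with summed levels of 3969 and 2452 in WT and 1879 and 6917 in transgenic mice, and their part in the interleukin 36 values was not tested.

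Of 15 inflammasome and interleukin 1 processing genes 13 were tested, and edgeR called 1 higher and 0 lower, with 5 higher and 1 lower at an unadjusted p under 0.05, while DESeq2 called 3 higher and 0 lower. The median log2 fold change was 0.29. The gene that edgeR called was *Aim2*, a sensor of cytosolic DNA, with 49 and 33 counts in the WT libraries and 349 and 355 in the transgenic ones. On the log2 scale it was 2.78 higher (standard error 0.29, adjusted p = 0.0201 from edgeR). *Casp1*, which cuts the interleukin 1 beta and 18 precursors, overlapped (437 and 165 counts against 439 and 359).

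Of 19 adaptors and kinases, such as *Myd88* and *Jak1*, all were tested and 0 were called, with 3 at an unadjusted p under 0.05 in edgeR (2 higher, 1 lower, against 34.1% of all genes) and 0 called by DESeq2. Of 18 NF-kB units and feedback genes edgeR called 0 higher and 1 lower, with 4 higher and 3 lower at an unadjusted p under 0.05, and DESeq2 called 3 higher and 1 lower. The gene that edgeR called was *Vcam1*, an adhesion molecule of activated endothelium, with 13.6 and 13.1 normalized CPM in WT and 6.66 and 4.50 in transgenic mice (log2 fold change -1.26, adjusted p = 0.0489). *Vcam1* was no longer called with library size scaling.

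Genes known to respond to each cytokine class were read as lists. Of 16 interferon gamma response genes edgeR called 0 higher and 1 lower, with 1 higher and 2 lower at an unadjusted p under 0.05, and DESeq2 called 0 higher and 2 lower. The median log2 fold change was -0.74. *Gbp2*, a guanylate-binding protein, had 24.9 and 23.4 normalized CPM in WT and 9.91 and 10.7 in transgenic mice (log2 fold change -1.23, adjusted p = 0.0212 from edgeR). The transgenic libraries stood apart from each other in this list, with a summed level of 232 in replicate 1 and 119 in replicate 2 against 222 and 235 in WT.

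Of 16 interleukin 4 and 13 response genes 12 were tested, and edgeR called 1 higher and 2 lower, with 1 higher and 6 lower at an unadjusted p under 0.05. DESeq2 called 1 higher and 4 lower. The median log2 fold change was -0.90. Macrophage and monocyte markers had a median of -1.56, with 4 of 11 called lower and 1 higher by edgeR, and their part in this list was not tested. *Chil3*, a chitinase-like protein of alternatively activated macrophages with close paralogs, had 1 and 6 counts in the WT libraries and 288 and 263 in the transgenic ones (log2 fold change 5.90, standard error 0.80, adjusted p = 0.0279). *Chil3* too passed the filter on low counts through the transgenic libraries and was not tested at a minimum of 10 counts in every library. Its log2 fold change was 5.04 to 7.76 over the other settings that tested it. *Mrc1*, the macrophage mannose receptor, went the other way, from 40.8 and 43.5 to 7.46 and 9.56 normalized CPM (log2 fold change -2.31, adjusted p = 0.0155). *Cish*, a STAT5-induced feedback inhibitor, was also lower (39.2 and 42.7 against 19.4 and 22.7 normalized CPM, adjusted p = 0.0279).

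Of 16 interleukin 6 and 11 response genes 13 were tested and 0 were called in edgeR, with 4 at an unadjusted p under 0.05 (3 higher, 1 lower) and 3 called by DESeq2 (2 higher, 1 lower). Over all genes these shares were 34.1% and 18%. The median log2 fold change was 0.27 over the list and 0.01 over all genes. Its summed level was 456 to 459 normalized CPM in WT and 572 to 844 in transgenic mice. *Socs3*, the feedback inhibitor of gp130 signaling, had 41.4 and 38.7 normalized CPM in WT and 43.5 and 42.4 in transgenic mice (adjusted p = 0.483). *Reg3b*, an antimicrobial lectin, had 6.67 and 3.69 against 205 and 26.9 normalized CPM, and the spread between the transgenic libraries left it at an adjusted p of 0.0726.

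Of 15 interleukin 17 response genes 11 were tested, and edgeR called 2 higher and 0 lower, with 3 higher and 0 lower at an unadjusted p under 0.05, while DESeq2 called 3 higher and 0 lower. Over this list the median log2 fold change was 0.53. *Pigr*, which carries immunoglobulin A across epithelium, had 572 and 428 normalized CPM in WT and 2042 and 1263 in transgenic mice (log2 fold change 1.72, adjusted p = 0.0377 from edgeR). *Cxcl5*, a neutrophil chemokine, had 0 counts in both WT libraries and 16 and 17 in transgenic mice. Against a floor of 3 counts per WT library it was at least 4.33-fold higher, with an adjusted p of 0.0497, and it kept its call in 5 of 12 alternatives. *Cxcl5* passed the filter on low counts through the transgenic libraries, where it is high, and was not tested at a minimum of 10 counts in every library. Over all pathway lists pooled, with the cytokines left out, 10 of 126 tested genes (7.94%) were called, 4 higher and 6 lower, against 10.7% of all genes.

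Markers of cells that can make or receive these cytokines were read in the same fit. Bulk RNA cannot tell fewer cells of a type from less RNA per cell. For *Il33*, all 8 endothelial markers were called lower, with a summed level of 622 to 646 normalized CPM in WT and 230 to 256 in transgenic mice. The 9 fibroblast markers all had fitted values below 0 and 4 were called lower (2726 to 3000 against 780 to 1360), and 5 of 7 surface mucous markers were called lower (56340 to 67081 against 25464 to 29828). For *Il1b* and *Tnf*, 4 of 11 macrophage and monocyte markers were called lower and 1 higher (292 to 303 against 138 to 144). Of 6 tested neutrophil markers 2 were called lower and 4 had fitted values above 0 that did not pass, with a median log2 fold change of 0.40 over the list and a summed level of 12.6 to 14.5 against 7.96 to 11.5, and *Ly6g*, *Ngp* and *Camp* were at 0.

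For *Il4*, *Il13*, *Ifng* and *Il17a*, 0 of 10 tested markers of T and innate lymphoid cells were called (66.9 to 76.3 against 54.6 to 55.1), with 1 lower at an unadjusted p under 0.05 in edgeR and 0 called by DESeq2. Mast cell markers, the cells that carry *Il1rl1*, were called higher in 6 of 11 genes and lower in 1 (141 to 142 against 282 to 283). Their median log2 fold change was 1.89. In WT most of the sum is *Kit* (57.1 and 64.2) and *Hdc* (61.3 and 36.5). In transgenic mice *Kit* had 56.0 and 53.4 and was not called, and *Hdc*, the gene called lower, had 8.61 and 14.9. Tuft cell markers, for *Il25*, were called higher in 5 of 10 genes (341 to 368 against 461 to 504). How far these marker levels bear on the cytokine values was not tested.

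**Figure D5:**
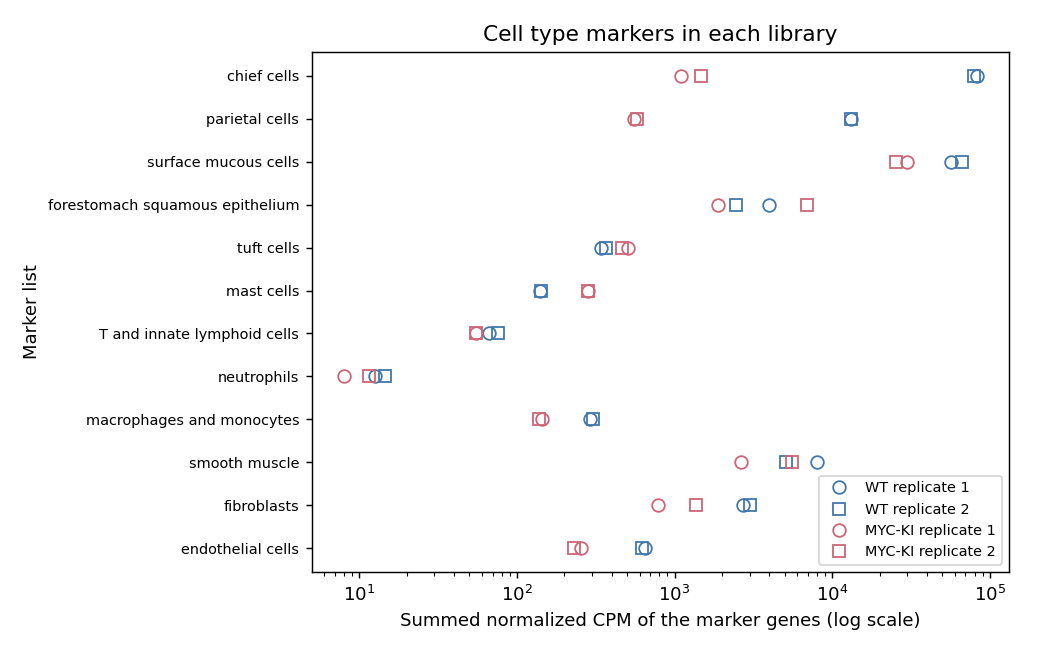
Summed normalized CPM (log scale) of 12 marker lists in each library, blue for WT and red for transgenic (MYC-KI) mice. Endothelial markers lie at 230 to 256 in transgenic against 622 to 646 in WT mice, mast cell markers at 282 to 283 against 141 to 142, and the squamous list spreads most within transgenic mice (1879 and 6917).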

How the data were processed

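Gastric RNA-seq of 2 WT and 2 Atp4b-cre;MycOE samples was analysed. The authors deposited raw counts per gene symbol, with no normalization, and the submitters' processing notes name HISAT2 and mm10, while the counting tool, annotation and strand setting are not given in the sources used here. Transgenic counts were reassigned in row order to the names sorted by character code. The test was that of edgeR 4.0.16, run in R 4.3.3 (filterByExpr with a minimum count of 10, TMM, quasi-likelihood test, genotype as the only term, Benjamini-Hochberg adjustment over all tested genes). The standard error is the absolute log2 fold change over the square root of F. The p-values rest on 2 samples a group, with an estimate of spread that is shared in part over genes. An exact permutation test of 2 against 2 samples could not go below a p of 0.333. The tests were checked on simulated counts.

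The cytokines, the 9 pathway lists and the 14 marker lists were chosen with earlier results of these data known. Named genes are the 10 cytokines, the called genes of each pathway list, the receptors of the tested cytokines and *Myc*. Outside that rule, *Il4ra*, *Ifngr1*, *Il6ra*, *Casp1*, *Socs3*, *Reg3b*, *Il25*, *Tslp* and the interleukin 36 genes were named after their values were seen, and other genes serve as background or checks. *Il36* genes were matched by their older symbols. The call thresholds follow the study's methods. Alternatives were the deposited order, DESeq2 1.42.0, other scalings, filters and fold thresholds, the replicate number as a block, and leaving out each library. Positions and exon lengths are from GENCODE M21 (GRCm38), and neighboring genes and promoter windows are from RefSeq on GRCm38.p6.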

Additional observations from a re-analysis of the deposited data

How the results depend on the processing

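*Il11* and *Il33* kept their direction in every setting run on the re-sorted table, at 3.46 to 3.69 and -0.72 to -0.48 with all libraries. In the deposited order 18580 genes (9422 higher, 9158 lower), 6 of the cytokines and 122 pathway genes were called, and *Il1b* turned to -2.42. DESeq2 called 3174 genes (1701 lower) and 22 pathway genes, and the fit with no filter also called 22 pathway genes. With library size in place of TMM 3011 genes were called, 2272 higher and 739 lower, with 17 pathway genes and 1 cytokine. A minimum of 10 counts in every library left 1 cytokine called, because *Il11* was then not tested, and a log2 threshold of 1 left 1 cytokine and 1113 genes (464 higher), because *Il33* is smaller. With the replicate block 114 genes (27 higher, 87 lower), 0 cytokines and 2 pathway genes were called by edgeR, with 3 cytokines and 5178 genes at an unadjusted p under 0.05 and adjusted p-values of 0.0612 for *Il11* and 0.0619 for *Il33*. The labels do not say whether equal replicate numbers mark pairs. Replicate 1 deviations of the genotypes correlated at 0.064 over genes, which with 2 libraries a genotype cannot show whether they do. Why calls were lost with the block was not tested. Fits without 1 library called 0 to 2470 genes (0 to 1064 higher, 0 to 1406 lower), 0 to 2 cytokines and 0 to 20 pathway genes. The fits with 0 calls are those with 1 WT library, whose spread is taken from the transgenic pair. Without transgenic replicate 1 *Il11* lost its call (adjusted p = 0.0545) and *Il33* kept it (0.0349). For *Il1b* the log2 fold change was -0.022 without WT replicate 1 and 1.74 without WT replicate 2. Depth limits *Il4*, *Il6*, *Il13*, *Il17a* and *Ifng*, and no level is read for *Tnf*, which lies in a run of genes at 0.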

Other observations

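All 10 parietal cell markers were called lower, with a summed level of 13189 to 13208 normalized CPM in WT and 551 to 575 in transgenic mice, and so were 4 of 5 tested chief cell markers (78857 to 83092 against 1100 to 1463). Of 5 tested pancreatic acinar markers 3 were called lower (215 to 251 against 125 to 146). *Cela1* alone makes up nearly the whole acinar sum (WT 247 and 211, transgenic 124 and 145). *Cpa1*, *Prss2*, *Amy2a5* and *Try4* had no reads in any library. *Pnlip*, left untested, went the other way, with 18 and 7 reads in the transgenic libraries against 1 and 0. Of 8 smooth muscle, 13 forestomach squamous and 7 tested B and plasma cell markers 0 were called by edgeR, with 0, 1 and 3 at an unadjusted p under 0.05 and 0, 1 and 0 called by DESeq2. Their summed levels were 5090 to 8000 against 2632 to 5575 for smooth muscle and 764 to 768 against 716 to 918 for B and plasma cells. Most of the B and plasma cell sum is *Xbp1* (400 and 441 in WT, 363 and 307 in transgenic mice) and *Sdc1* (271 and 273, 345 and 361). That list had a median log2 fold change of -0.28.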
